A study of Rattus norvegicus with 12 samples.

Results

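The glucocorticoid-responsive genes described here are 7 genes, Sgk1, Dusp1, Tsc22d3, Per1, Fkbp5, Klf9 and Nr3c1, each read by 1 probe among the 22523 probes (14941 named genes) of an Illumina rat expression array. The probes were found by gene symbol in the platform annotation. The members were chosen by measured values of these arrays, namely a low Sgk1 at 6 hours and a high Dusp1 at the late times, so the values of Sgk1 against control cells and all values of Dusp1 are given as a description, with no test. FaO is a rat hepatoma cell line. Its cells were given 500 µM α-lipoic acid (α-LA), renewed daily, and RNA was taken after 6, 18, 24, 30, 42, 48 and 72 hours, with 1 array for each time. Another 2 arrays are of FaO cells given a single dose of 0.1 µM thapsigargin (TG), a blocker of the ER calcium pump, and 3 arrays are of control cells. The TG arrays are titled 18 and 24 hours, whereas the protocol gives 6 and 18 hours, so the hours of the titles are used only as names. Each array read RNA pooled from 3 wells, so that fewer cells with a transcript and less of it per cell cannot be told apart. Growth medium held 10% serum and treatment was done in 2% serum. Neither the serum nor the harvest time of the control cells is given separately in the sources used here, so a difference in serum or in time in culture cannot be told apart from the treatment in any comparison with control cells.

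Glucocorticoids enter the cell and bind the glucocorticoid receptor, encoded by Nr3c1, which is held in the cytosol by a chaperone complex and moves to the nucleus, where it binds DNA elements and raises or represses transcription. In hepatocytes this hormone is known for driving gluconeogenesis and amino acid breakdown. Several of its targets act back on the pathway or on kinase signalling. Fkbp5 encodes a co-chaperone that lowers the receptor's hormone affinity, Tsc22d3 encodes GILZ, an anti-inflammatory leucine zipper protein, Dusp1 encodes a phosphatase of MAP kinases, and Klf9 and Per1 encode a zinc finger transcription factor and a part of the circadian clock. Sgk1 encodes a kinase induced by serum and by glucocorticoids that acts downstream of PI3K. None of these genes answers to glucocorticoids alone.

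The DNA just upstream of Dusp1, Klf9 and Sgk1 is shown because these genes had the largest rise, a rise seen on every treated array and the largest fall of the set. The sequences are RefSeq's (build GRCr8), 250 bases each, ending just before the annotated start, 5′ to 3′ on the gene's strand. They lie at chr10:17184603-17184852 (plus strand) for Dusp1, chr1:230126396-230126645 (plus strand) for Klf9 and chr1:24804832-24805081 (minus strand) for Sgk1, whose window belongs to the most downstream of 3 annotated starts. Capitals mark the cyclic AMP response element TGACGTCA, its arm TGACG (or CGTCA on the other strand) and the E-box CACGTG.
Dusp1: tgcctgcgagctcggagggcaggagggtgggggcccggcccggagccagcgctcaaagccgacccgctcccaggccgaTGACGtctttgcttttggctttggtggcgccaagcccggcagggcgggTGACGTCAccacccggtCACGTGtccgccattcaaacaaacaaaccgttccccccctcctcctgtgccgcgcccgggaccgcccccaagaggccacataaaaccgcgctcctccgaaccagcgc
Klf9: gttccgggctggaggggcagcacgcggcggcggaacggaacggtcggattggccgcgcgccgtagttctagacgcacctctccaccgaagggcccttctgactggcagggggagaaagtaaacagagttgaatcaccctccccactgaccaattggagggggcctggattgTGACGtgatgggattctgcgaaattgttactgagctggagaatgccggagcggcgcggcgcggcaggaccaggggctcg
Sgk1: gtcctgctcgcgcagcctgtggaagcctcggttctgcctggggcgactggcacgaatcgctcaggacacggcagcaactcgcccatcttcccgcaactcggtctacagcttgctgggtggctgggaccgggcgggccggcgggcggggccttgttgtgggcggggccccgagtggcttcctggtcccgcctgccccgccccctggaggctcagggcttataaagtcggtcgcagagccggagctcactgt

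All 7 genes matched the promoter table, with 12 windows of which Sgk1 and Tsc22d3 have 3 each and Nr3c1 has 2. The full glucocorticoid response element (AGAACA and TGTTCT with 3 bases between them) was in none of the 12 windows and in 0.012% of 33469 windows of this length. Its arm AGAACA, searched on both strands as all motifs here were, was also in none of the 12, against 17.5% of all windows. TGACGTCA stood 124 bases before the start of Dusp1, and 1.59% of all windows hold it. The arm TGACG, which overlaps TGACGTCA, was found in Dusp1, Klf9 and 1 window of Tsc22d3, and in 18.2% of all windows. CACGTG was found 107 bases before the start of Dusp1, and in 5.59% of all windows. A match describes the letters in the window only, and the absence of one says only that these letters are not in it.

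Signals are the authors' quantile-normalized intensities, which run from 88.3 to 55971 with a median of 133 on every array. Whether background was removed from them is not stated in the sources used here. A probe was counted as above background at a signal of 150, which 8409 to 8422 probes reached on each array. Of the 7 genes, 6 reached it on all 12 arrays, and the probe of Nr3c1 did so only at 42 hours. The 9193 probes that did so on 3 or more arrays were tested with limma on the log2 scale with Benjamini-Hochberg adjustment. Following the study, the arrays of 18, 24 and 30 hours formed the early and those of 42, 48 and 72 hours the late group, so time is part of the spread in each. The study drew this split from a clustering of these same arrays. Late-versus-early tests and overlaps therefore rest on groups chosen from the values of these arrays, and their p-values can be too small. Nothing says that the arrays of a group come from separate cultures, so p-values rest on array-to-array spread alone, which may be technical. Of 10 hepatocyte markers 9 were on the array and 6 of them, Alb, Ttr, Serpina1, Tf, Fgb and Afp, were above background on all 12 arrays, while Apoa2, Apob and Hnf4a were below it on all. Of the fixed markers of cholangiocytes, endothelium, macrophages and stellate cells, 20 were on the array, none was above background on all arrays and 18 were below it on all. The cholangiocyte marker Sox9 was above background on 9 of the 12 arrays.

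**Figure D1:**
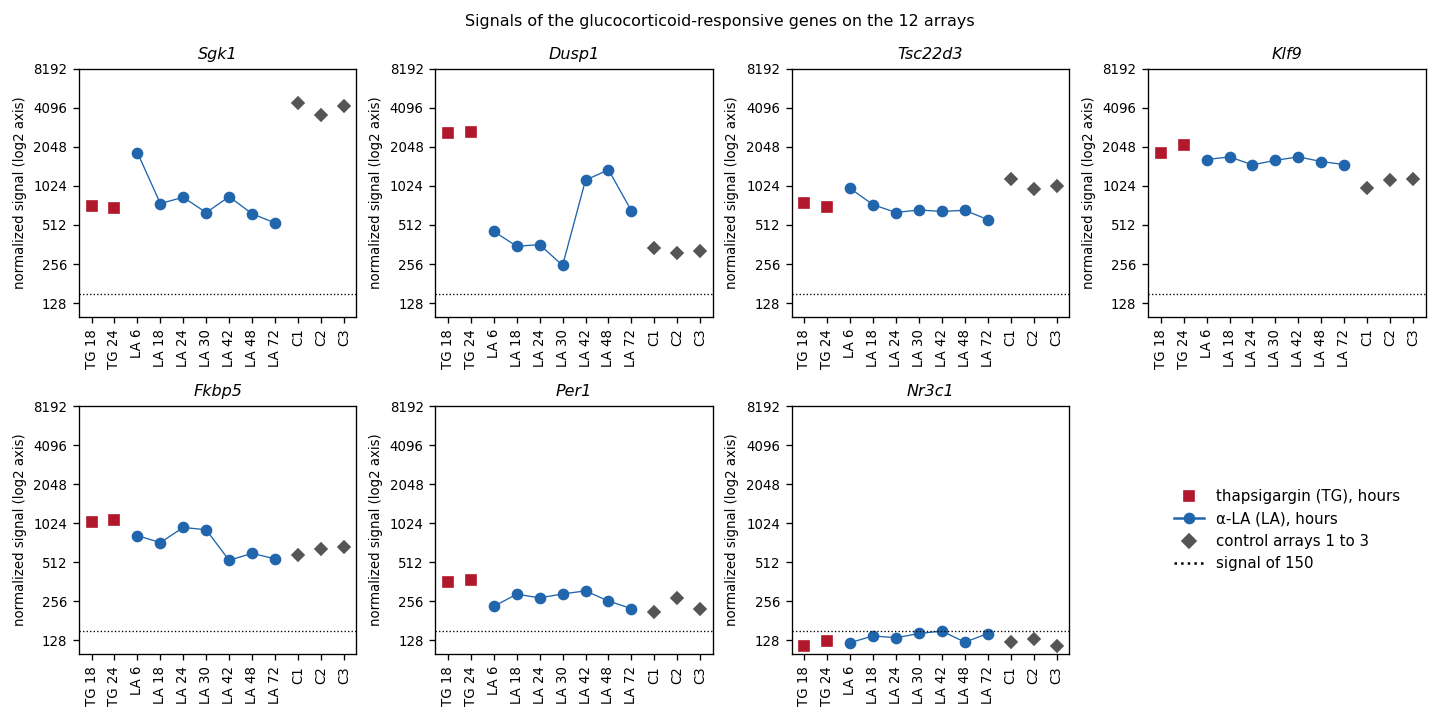
Normalized signal (vertical log2 axis) of the 7 genes on each of the 12 arrays: squares are thapsigargin arrays, joined circles are α-LA arrays from 6 to 72 hours, diamonds are the 3 controls, and the dotted line is the signal of 150. Sgk1 lies at 1849.8 at 6 hours and at 837 or lower on the arrays of 18, 24 and 30 hours, against 3592 to 4464 in control cells, whereas Dusp1 is highest under thapsigargin, and Nr3c1 stays near the dotted line.

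Leaving aside Sgk1 and Dusp1, whose opposite values chose the set, the other 4 measured genes did not share 1 direction. Tsc22d3 fell and Klf9 rose in each comparison with control cells, Fkbp5 rose early and with TG and did not pass late, and Per1 passed only with TG. On each of the TG arrays of 18 and 24 hours, 3 of these 4 genes were above every control (39.1% of tested probes were) and 1 was below every control (37.6% and 37.1%). At 6 hours of α-LA 2 were above and 0 below, against 25.9% and 28.6% of tested probes. At 18 hours 3 were above and 1 below (38.6% and 35% of tested probes), at 24 hours 3 and 1 (38.4% and 35.6%), and at 30 hours 3 and 1 (39.5% and 36.4%). In the late group 2 were above and 2 below at 42 hours (40.1% and 37.2%), 1 and 1 at 48 hours (39.9% and 36.5%), and 1 and 2 at 72 hours (40.3% and 35.5%). The median log2 change of the 4 genes against the control mean was 0.68 and 0.73 on the TG arrays, 0.19 at 6 hours, 0.42 at 30 hours and -0.14 at 72 hours, where the genes ran from -0.90 to 0.45. The median of all tested probes lay between -0.0050 and 0.021 on the treated arrays.

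Sgk1 was the gene of the set with the largest fall. Its signal was 1849.8 at 6 hours, then 749.7, 837 and 638 at 18, 24 and 30 hours, and 847, 625 and 531 at 42, 48 and 72 hours of α-LA. With TG it was 713 and 687, and in control cells 4464, 3592 and 4237. Every treated array was below every control, as 21.5% of tested probes were on all early, 24.2% on all late and 31.5% on all TG arrays. The 6 hour array stood apart, between the controls and the other 8 treated arrays. Against the mean of the controls Sgk1 was 2.21-fold lower at 6 hours, 5.44-fold lower at 18 hours and 7.68-fold lower at 72 hours. It was 5.72-fold and 5.94-fold lower on the TG arrays. The group means were 741 ± 100 (SD, n = 3) early, 668 ± 162 (SD, n = 3) late, 700.2 ± 18 (SD, n = 2) with TG and 4098 ± 452 (SD, n = 3) in control cells.

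Sgk1 stayed low on the late arrays. The late minus early log2 difference was -0.17 (95% interval -0.53 to 0.19, adjusted p = 0.55 from limma), so the interval reaches to a further late fall of 0.53. TG and early α-LA gave close values, with a log2 difference of -0.07 (95% interval -0.45 to 0.30, adjusted p = 0.80 from limma). This comparison of TG with early α-LA was added after the data were seen.

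Tsc22d3 fell with all treatments, by less than Sgk1. Its signal was 979 at 6 hours, 733, 639 and 669 at 18, 24 and 30 hours, and 651, 664 and 563 at 42, 48 and 72 hours. It was 760.0 and 704 with TG, and 1162, 965 and 1031 in control cells. At 6 hours it lay within the range of the controls, and on the other 8 treated arrays it lay below all of them, as 21.5% of tested probes did early, 24.2% late and 31.5% with TG. On the log2 scale it changed by -0.63 early (standard error 0.11, limma adjusted p = 0.00097), by -0.75 late (standard error 0.11, limma adjusted p = 0.00022) and by -0.52 with TG (standard error 0.12, adjusted p = 0.0029 from limma). Late and early differed by -0.12 (95% interval -0.36 to 0.11, adjusted p = 0.50 from limma).

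Klf9 was higher on all 9 treated arrays than on any control. Its signal was 1636 at 6 hours, 1715, 1489.6 and 1614 at 18, 24 and 30 hours, and 1716, 1579 and 1497 at 42, 48 and 72 hours. With TG it was 1825 and 2105, against 983, 1147 and 1164 in control cells. Groups that lay wholly above the controls were found for 23.3% of tested probes early, 27% late and 32.6% with TG. The rise was in place at 6 hours, at 1.49-fold, and the α-LA arrays stayed between 1.36-fold and 1.57-fold from then on. The log2 change was 0.55 early (standard error 0.10, adjusted p = 0.0018 from limma), 0.54 late (standard error 0.10, adjusted p = 0.0016 from limma) and 0.84 with TG (standard error 0.12, adjusted p = 8.4e-05 from limma). TG exceeded early α-LA by 0.29, which did not pass the test (95% interval 0.04 to 0.54 unadjusted, adjusted p = 0.081 from limma).

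**Figure D2:**
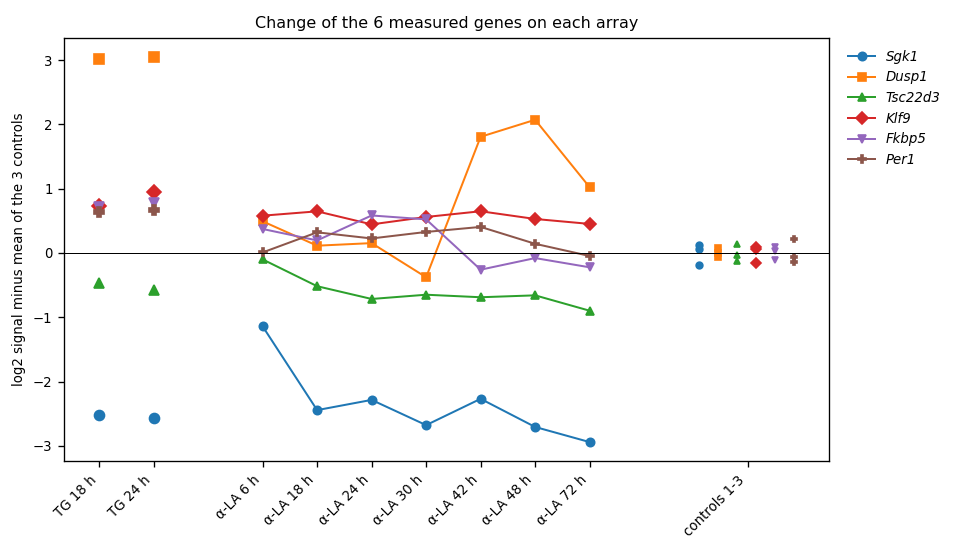
Log2 signal minus the mean log2 signal of the 3 controls (vertical axis) for the 6 measured genes on each array: thapsigargin arrays at the left, α-LA arrays joined in order of time, and the 3 controls of each gene at the right. At 48 hours the genes spread from -2.71 for Sgk1 to 2.07 for Dusp1.

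Fkbp5 and Klf9 parted in the late group. Fkbp5 had a signal of 820.2 at 6 hours, 725, 949 and 909.8 at 18, 24 and 30 hours, and 529, 599 and 543 at 42, 48 and 72 hours. With TG it was 1041 and 1085, and in control cells 586, 644 and 675. The 4 arrays up to 30 hours lay above every control (25.9% of tested probes did so at 6 hours and 23.3% on all early arrays). Those of 42 and 72 hours lay below every control (37.2% and 35.5% of tested probes), and that of 48 hours within their range. On the log2 scale it rose early by 0.43 (standard error 0.12, limma adjusted p = 0.014), differed late by -0.19 (standard error 0.12, limma adjusted p = 0.24) and rose by 0.75 with TG (standard error 0.12, adjusted p = 0.00036 from limma). The early call was lost without control 1 (0.38, adjusted p = 0.051) and without the 30 hour array (0.39, adjusted p = 0.053), where the range over all alternatives was 0.0035 to 0.053. From early to late it fell by 0.62 (standard error 0.12, adjusted p = 0.0065 from limma), with no overlap of the groups, as in 16.1% of tested probes. The call held in all 11 alternatives, with an adjusted p of 0.0038 to 0.032.

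Dusp1 had its highest α-LA signals on the 3 late arrays, and still higher ones with TG. Its signal was 457 at 6 hours, 351, 361 and 249.8 at 18, 24 and 30 hours, and 1136, 1364 and 659.5 at 42, 48 and 72 hours of α-LA. The TG arrays stood at 2619 and 2688, and the controls at 342, 309.6 and 324. The 30 hour array was below and the other α-LA arrays above every control, and the TG arrays lay above all other arrays. All late arrays were above every control for 27% of tested probes, and all TG arrays for 32.6%. Against the control mean Dusp1 was 1.41-fold higher at 6 hours, 3.50-fold at 42 hours, 4.20-fold at 48 hours and 2.03-fold at 72 hours. On the TG arrays it was 8.07-fold and 8.28-fold higher. The group means were 321 ± 62 (SD, n = 3) early, 1053 ± 360 (SD, n = 3) late, 2654 ± 49 (SD, n = 2) with TG and 325 ± 16 (SD, n = 3) in control cells. The early log2 change of -0.04 turned to 0.13 without the 30 hour array and to 0.095 with the 6 hour array added.

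Per1 passed the test against control cells only with TG. Its signal was 234 at 6 hours, 290.2, 272 and 291 at 18, 24 and 30 hours, and 308, 256.5 and 225 at 42, 48 and 72 hours. With TG it was 361 and 371, against 210.1, 269.9 and 221 in control cells. Control 2 was the highest of the controls and reached into the range of the α-LA arrays. The log2 change was 0.65 with TG (standard error 0.14, adjusted p = 0.0020 from limma), 0.29 early (standard error 0.13, adjusted p = 0.11 from limma) and 0.17 late (standard error 0.13, adjusted p = 0.35 from limma). TG exceeded early α-LA by 0.36, which did not pass (95% interval 0.07 to 0.66 unadjusted, adjusted p = 0.066 from limma, and 0.034 with only these 2 groups in the fit, over a range of 0.034 to 0.25 in the alternatives). If background is still in the signals, it makes up much of a signal of this size, and fold changes of Per1 can be understated.

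Nr3c1, the receptor gene, was not well above background. Its probe read 123 at 6 hours, 138, 134 and 144 at 18, 24 and 30 hours, and 151, 124 and 144 at 42, 48 and 72 hours. It read 115 and 126 with TG, and 125, 130.0 and 115 in control cells. The early arrays read above every control, as 23.3% of tested probes did, and the late arrays overlapped with the controls. All but the 42 hour array were under 150, so no fold is given and no rise is read from these signals.

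In the 4 genes that could be tested against control cells, Tsc22d3, Klf9, Fkbp5 and Per1, 2 rose and 1 fell in the early group, where 16.6% of all tested probes rose and 15.7% fell. In the late group 1 rose and 1 fell, against 19.1% and 17.7% of all probes. With TG 3 rose and 1 fell, against 19.2% and 18.7%. From early to late none rose and 1, Fkbp5, fell among the 5 that could be tested, Sgk1 included, against 6.43% and 7.23%. Between TG and early α-LA none of these 5 passed, where 13.6% of all probes were higher and 13.9% lower. The comparisons with control cells share the same 3 control arrays and are not independent of each other.

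**Figure D3:**
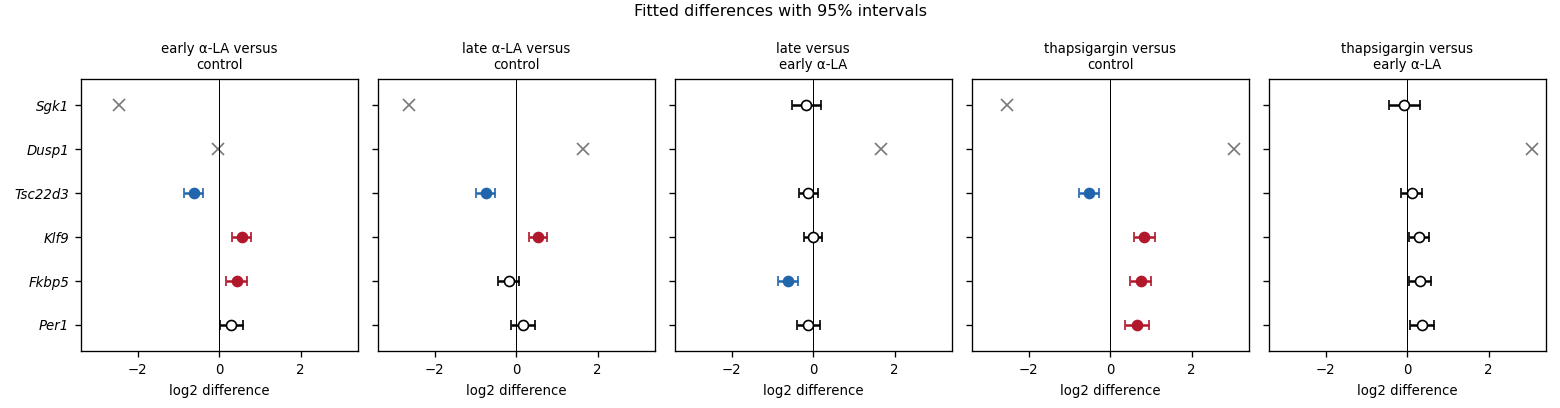
Fitted log2 difference (horizontal axis) of 6 genes in 5 comparisons, with 95% intervals; red is higher and blue lower at an adjusted p under 0.05, open circles did not pass, and grey crosses are values given without a test. Tsc22d3 lies left of 0 and Klf9 right of it in each comparison with control cells, and Fkbp5 is lower in the late than in the early group, by 0.62.

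For each gene, the named probes with the closest course were found by the root mean square (RMS) difference of log2 changes over the 9 treated arrays. Sgk1 was closest to Wnt4, a secreted Wnt ligand (0.33), G6pc1, the catalytic subunit of glucose-6-phosphatase (0.33), and Mcm3, a part of the replicative helicase (0.46). Wnt4 averaged a signal of 489 early, 349.7 late, 376 with TG and 2303 in control cells. Dusp1 was closest to Ifi27l2b, of an interferon-inducible family (0.44), Oasl (0.64) and Lcn2, a secreted iron-siderophore binder (0.66). Oasl and Lcn2 were under 150 on all control arrays, and Oasl also on all early ones, so their distances and order are approximate. Ifi27l2b averaged 3915 early, 9766 late, 18355 with TG and 3481 in control cells. Of 8376 named probes none came within an RMS difference of 0.25 of Sgk1 or of Dusp1, whereas 285 did for Tsc22d3, 508 for Per1, 132 for Klf9 and 41 for Fkbp5. The closest to these were Ddias, Cdt1 and Sf3b2 for Tsc22d3 (0.07 to 0.10), Desi1, Ssr2 and Cs for Per1 (0.07 to 0.10), Pfdn6, Eif5-ps1 and Wwp1 for Klf9 (0.09 to 0.17) and Tbrg4, Letm1 and Uck2 for Fkbp5 (0.17). Ddias was under 150 on all late arrays and Cdt1 on all late and TG arrays, so their distances are approximate too. A gene with a small change has many close neighbours by this measure. Among Tsc22d3, Klf9, Fkbp5 and Per1, the closest pair was Per1 and Fkbp5 with 0.31, and the most distant was Tsc22d3 and Klf9 with 1.22, which had opposite signs on all 9 treated arrays.

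Other known targets of the glucocorticoid receptor in hepatocytes and other cells also went both ways. Of 39 such genes 22 were tested, and of these 3 rose and 6 fell early, 8 rose and 8 fell late, and 8 rose and 7 fell with TG. Their median log2 change was -0.22 early, -0.07 late and 0.20 with TG, beside 0.01, 0.02 and 0.01 over all tested probes. This list and those below were chosen with earlier results of these data known, so their shares are a description and no support. The share that passed in either direction was 40.9% early, 72.7% late and 68.2% with TG. Of all tested probes 32.3%, 36.7% and 37.9% passed. Hp, counted among the genes that rose in each comparison, was under 150 on all controls and entered the test only through treated arrays. Pck1, the cytosolic phosphoenolpyruvate carboxykinase of gluconeogenesis, had log2 changes of -3.41 early (adjusted p = 1.8e-07 from limma), -3.54 late and -3.03 with TG. G6pc1, the last enzyme of glucose output, had a signal of 215 to 260.2 early, 183 to 206 late and 178 to 183 with TG, against 922 to 1049 in control cells. Its log2 changes were -2.10, -2.37 and -2.46, all past the test, the largest adjusted p being 3.6e-07 from limma. Sesn1, a stress-induced inhibitor of mTORC1 signalling, changed by -2.11 early, -1.74 late and -1.93 with TG (adjusted p of 5.8e-07 or less from limma). Mt1, the metal binder metallothionein 1, fell by 2.46 late (adjusted p = 0.00056 from limma), and its changes of -0.79 early and 1.03 with TG did not pass (adjusted p = 0.17 and 0.076 from limma). The signal of Mt1 in control cells ran from 6478 to 16403. Igfbp1, Tat and Agt were picked after their values were seen. Igfbp1 had the largest late rise of the list. It rose by 1.65 early, 1.73 late and 2.36 with TG (adjusted p = 0.00028, 0.00014 and 9.8e-06 from limma). Tat, the tyrosine aminotransferase that is a classical glucocorticoid target of liver, had a signal of 2745 to 3394 early, 2873 to 3653 late and 3309 to 3864 with TG, against 2240.3 to 2881 in control cells. It rose by 0.38 late and by 0.50 with TG (adjusted p = 0.041 and 0.015 from limma), and the early change of 0.31 did not pass (adjusted p = 0.092 from limma). Agt, the gene of angiotensinogen, fell by 0.53 early and by 0.74 late and rose by 1.71 with TG (adjusted p = 0.046, 0.0080 and 2.4e-05 from limma).

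Genes listed around the receptor, chiefly chaperones and coregulators but also others such as efflux transporters, passed the test about as often as all probes did. Of 28 such genes outside the set, 17 were tested, and 3 rose and 2 fell early, 3 rose and 3 fell late, and 2 rose and 4 fell with TG. This is 29.4%, 35.3% and 35.3% of them, against 32.3%, 36.7% and 37.9% of all tested probes. The median log2 change was 0.02 early, -0.11 late and -0.13 with TG. Nrip1, a corepressor of nuclear receptors, rose by 0.89, 0.78 and 1.25 on the log2 scale (adjusted p = 0.00013, 0.00022 and 4.6e-06 from limma). Ppid, the cyclophilin co-chaperone of the receptor complex, rose by 0.65 early and by 0.65 late (adjusted p = 0.0054 and 0.0045 from limma), and its change with TG was -0.40 (adjusted p = 0.059 from limma). Abcb1b, a multidrug efflux transporter, rose by 0.64 late (adjusted p = 0.00019 from limma). Dnajb1, a cochaperone of HSP70, had changes of -0.37, -0.62 and -0.63, all past the test (adjusted p of 0.023, 0.00092 and 0.00085 from limma). Fkbp4, picked after its values were seen, is the co-chaperone relative of Fkbp5 that favours receptor transport. It did not pass against control cells, with changes of 0.10 early, 0.16 late and -0.30 with TG (adjusted p = 0.53, 0.28 and 0.055 from limma).

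Per1 belongs to the circadian clock, of which 10 other genes were tested out of 19. Of these 3 rose and none fell early, 3 rose and none fell late, and 3 rose and none fell with TG, with medians of 0.29, 0.13 and 0.20. In each comparison 30% of the clock genes passed, which is no more than the 32.3%, 36.7% and 37.9% of all tested probes. Nfil3, a transcriptional repressor of the clock output, rose by 1.81 early, 1.90 late and 1.99 with TG (adjusted p = 0.00023, 0.00012 and 6.0e-05 from limma). Bhlhe40, another repressor, rose by 1.64, 0.95 and 0.78 (adjusted p of 0.00026 or less from limma). Cry1, the partner of PER proteins, had a signal of 1896 to 2211 early, 1028 to 1197 late and 1868 to 2599.7 with TG, against 842 to 888 in control cells. It was lower late than early by 0.85 on the log2 scale (adjusted p = 0.00090 from limma), as was Per2 by 0.85 (adjusted p = 0.015 from limma), a gene that also stands on the list of receptor targets. Clock genes can differ with the hour of harvest. Whether they did in these cells was not tested, and the hour of the control harvest is not given.

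Dusp1 is both a receptor target and an immediate early gene. Of 25 other MAP kinase phosphatases and immediate early genes 16 were tested, of which 7 rose and none fell early, 7 rose and none fell late, and 8 rose and 2 fell with TG. The medians were 0.35, 0.31 and 0.38. In either direction 43.8%, 43.8% and 62.5% of these genes passed, against 32.3%, 36.7% and 37.9% of all tested probes. Atf3, a stress-induced transcription factor, had a signal of 273 to 280.2 early, 376 to 836 late and 755 to 772 with TG, against 136 to 151 in control cells, with adjusted p of 0.0081 or less from limma in each comparison. Only 1 of the 3 controls of Atf3 reached 150, so the fitted log2 changes of 0.94, 2.11 and 2.41 start from a level close to background. Jun, a subunit of AP-1, was below background in all controls, and was at least 2.44-fold higher late and at least 1.41-fold higher with TG. It entered the test only through treated arrays, so no p-value against control cells is given for it. The counts of genes that rose include Jun in each comparison, and early also Dusp4, which entered in the same way. Dusp8, another phosphatase, rose by 0.68, 1.13 and 0.81, and Ier3 by 0.42, 1.06 and 0.71 (adjusted p of 0.014 or less from limma in each). The controls of Dusp8 ran from 133 to 166, so its changes also start from a level close to background. From early to late, Atf3, Jun and Ier3 were the 3 genes of the list that rose, by 1.16, 0.88 and 0.64 (adjusted p = 0.0080, 0.0027 and 0.0020 from limma), and Myc, named after its values were seen, fell by 1.18 (adjusted p = 0.00086 from limma). Myc had risen by 1.47 early against control cells (adjusted p = 8.6e-06 from limma), and its late change of 0.28 did not pass (adjusted p = 0.088 from limma). Unlike Dusp1, Jun was lower with TG than in the late group, with mean signals of 212 with TG and 369 late, a difference that was not tested.

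**Figure D4:**
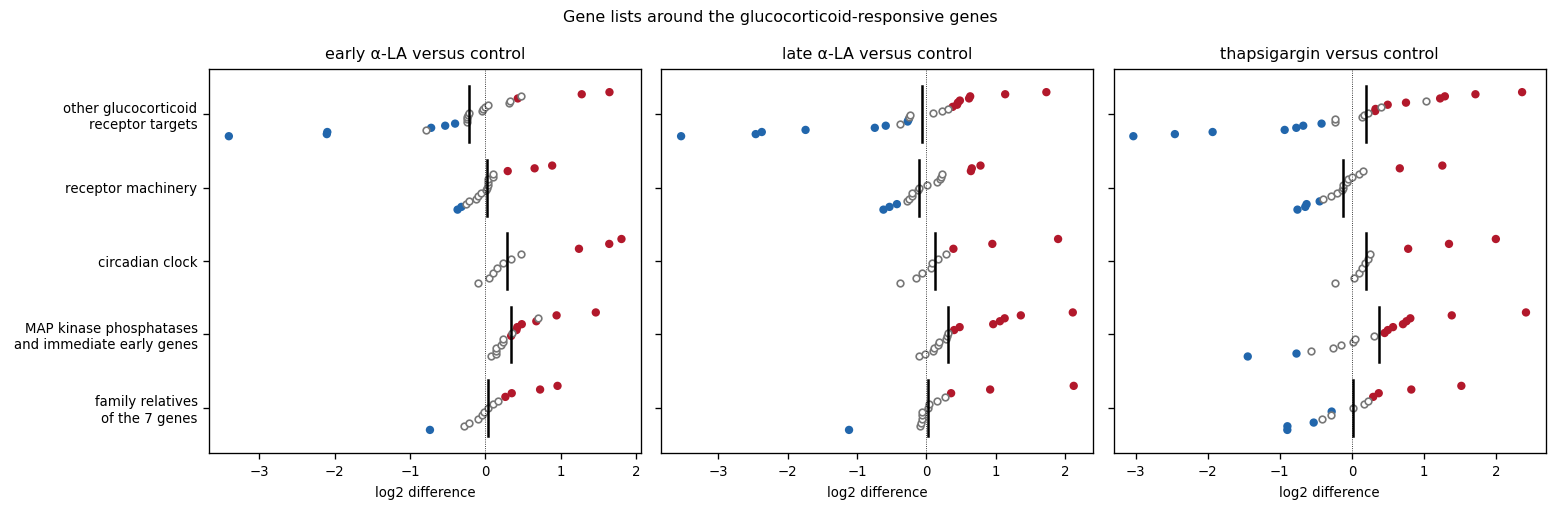
Log2 difference (horizontal axis) of the tested genes of 5 lists, without the 7 genes themselves, in the early, late and thapsigargin comparisons with control cells. Each point is a gene, red or blue where it was higher or lower at an adjusted p under 0.05 and open where not, and the black bar is the median of the list. The receptor targets span from -3.54 to 1.73 in the late comparison.

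Relatives of the 7 genes in their own families showed no common course. Of 22 relatives 13 were tested, of which 4 rose and 1 fell early, 3 rose and 1 fell late, and 4 rose and 4 fell with TG. The shares that passed were 38.5%, 30.8% and 61.5%, against 32.3%, 36.7% and 37.9% of all tested probes. Fkbp2, counted among the genes that rose with TG, was under 150 on all controls and entered the test only through treated arrays. Klf6, a zinc finger factor of the family of Klf9, had a signal of 478 to 678 early, 1021 to 1625 late and 851 to 885 with TG, against 269 to 325 in control cells. It rose by 0.96, 2.12 and 1.52 (adjusted p = 0.0015, 4.2e-06 and 3.2e-05 from limma). Klf10, a TGF-β induced repressor, was below background on all late and all TG arrays and at least 1.79-fold lower there than in control cells (adjusted p = 4.3e-06 and 1.3e-05 from limma). Klf5 rose by 0.73 early and by 0.92 late (adjusted p = 0.00048 and 6.8e-05 from limma), and Klf13 by 0.27 and 0.35 (adjusted p = 0.031 and 0.0060 from limma). The probe of Sgk2 was below background on all arrays.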

How the data were processed

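RNA of FaO cells was hybridized to Illumina RatRef-12 arrays, 12 in all. The authors read the scans with BeadStudio 3.0.19.0 (a version taken from the submitters' processing notes), then quantile-normalized them in BRB-ArrayTools. The deposited table used here holds these intensities on a linear scale, and no source used here says if background was removed. A deposited table of values before normalization has 24 columns that match no sample and was not used. Gene names came from the platform annotation with symbols updated by gene ID (13793 probes) or from a supplementary gene table of the study (1682). Another 7048 probes stayed unnamed and 0 carried more than 1 symbol. Where a gene has several probes, lists use the brightest, and no member has more than 1. The members and lists were chosen with earlier results of these data known.

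Log2 intensities were tested with the lmFit and eBayes functions of limma 3.58.1 (R 4.3.3) for 9193 probes with a signal of 150 on at least 3 arrays, with Benjamini-Hochberg adjustment over these probes, and called at 0.05. A single model held the control, early and late groups (3 groups), with thapsigargin as the fourth group in its comparisons. The 6 hour array entered no test. The threshold of 150 stands in for detection p-values, which could not be tied to arrays. A gene under 150 on all arrays of the lower group gets a bound, at least N-fold, set against 150, or against its own signal where that is higher. Genes named are the 7 members, the 3 closest probes of each, and the 4 genes of each list that changed most in the late group. Others are those said to be chosen afterwards and those named for where their signal stood against background. Alternatives were a signal of 200, no filter, subtraction of the lowest signal with 16 added, a variance trend, only the compared groups in the fit, other group memberships and each array left out. The fit was tested on simulated data with 200 changed probes, and the early comparison recovered 41% of changes of 0.5 and 97% of changes of 1 on the log2 scale among 9193 probes. In the real early comparison 32.3% of tested probes were called, so the adjusted threshold differs there. The simulated shares are therefore not the power for real changes of these sizes. The number of arrays limits the precision.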

Additional observations from a re-analysis of the deposited data

Results flagged for a closer look

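Fkbp5 is listed because its α-LA effect differed between the time groups by a direct test, although clustering of these arrays had set those groups. Its log2 change against control cells was -0.19 in the late and 0.43 in the early group, and the late minus early difference was -0.62 (adjusted p = 0.0065 from limma, 3 arrays against 3, with every late array below every early array). The late arrays stood at 529 to 599 and the early ones at 725 to 949. No group holds 4 or more arrays, so single arrays were not screened within groups.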

How the results depend on the processing

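The calls of Tsc22d3 and Klf9 in the early, late and thapsigargin comparisons, of Fkbp5 and Per1 with thapsigargin and of Fkbp5 from early to late held under every alternative run. The number of members that rose early was 1 or 2 when an array was left out, since Fkbp5 lost its call without control 1 or the 30 hour array. Between thapsigargin and early α-LA no member was higher, but 1 was (Per1) with only these groups in the fit, and 0 or 1 with an array left out (Fkbp5, 0.39, adjusted p = 0.036 without the 24 hour array, over a range of 0.036 to 0.29 in the alternatives). Some changes near 0 turned sign. With an array left out, the early change of Dusp1 ranged from -0.13 to 0.13 (without the 30 hour array), and it was 0.095 with the 6 hour array added, that of Fkbp5 in the late group was 0.12 (adjusted p = 0.69) when all arrays from 18 hours on formed 1 group, the late minus early difference of Klf9 over -0.061 to 0.041 (0.041 without the 18 hour array and 0.038 without the 72 hour array), and the difference of thapsigargin from early α-LA in Sgk1 over -0.18 to 0.02 (0.018 without the 24 hour array). In these the cause was not tested. Adding the 6 hour array left 723 higher and 754 lower probes in the early comparison, against 1523 and 1445. From early to late, 373 probes were higher with only these groups in the fit, against 591, and with an array left out 314 to 620 were higher and 390 to 651 lower. Leaving out an array gave 1133 to 1670 higher probes with thapsigargin against control cells, and 601 to 1388 higher and 675 to 1369 lower against early α-LA. No paired analysis was possible because only the controls carry replicate numbers. Signals close to background, as of Per1, can understate a change, and the probe of Nr3c1 gives no level of the receptor transcript.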
